A study of Mus musculus with 8 samples.

Results

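The 7 genes described here encode the fatty acyl desaturases Fads1, Fads2 and Fads3 and the fatty acid elongases Elovl1, Elovl2, Elovl3 and Elovl5, as measured in mouse liver. They are 7 of 24535 genes with a single entry in the RNA-seq values and of 25033 in the Ribo-seq values, and all 7 were listed in each of the 8 libraries. They were chosen by symbol, and the raised mRNA of Fads1, Fads2 and Elovl5 was known from an earlier analysis of these values when the choice was made. Their mRNA and the ratio built on it are therefore given as a description with no p-value. Ribosome-protected fragments (RPFs) were sequenced in separate libraries and were tested.

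Livers came from male C57BL/6 mice at post natal week 25. Every group described had the high-fat diet, with 45% of its calories as fat, from week 8. The sources differ on the time on the diet, which is 25 weeks in the labels and 17 weeks in the methods. The HF group (the study's M group) had the diet alone, and the HB group (its B group) also had betaine at 2% w/v in the drinking water. Betaine is a methyl donor made from choline. Each group had 6 mice, and each assay had 2 libraries per group. The labels speak of pooled RNA preparations and the methods of chosen mice, so n counts libraries, and p-values measure the spread between libraries, which may be partly technical.

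Mammals cannot make linoleic and alpha-linolenic acid and lengthen and desaturate both in the endoplasmic reticulum of the hepatocyte. FADS2 introduces the first double bond, ELOVL5 lengthens the product, and FADS1 introduces the next double bond, which gives arachidonic and eicosapentaenoic acid. ELOVL2 lengthens these further on the way to docosahexaenoic acid. FADS3 is known to act on sphingoid bases, while ELOVL1 and ELOVL3 lengthen saturated and monounsaturated chains. In liver the polyunsaturated branch is a known target of the transcription factor SREBP-1c, and its products in turn restrain that factor.

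On GRCm38 with the GENCODE M21 annotation, Fads3 (ENSMUSG00000024664.5, chr19:10041569-10060110, plus strand), Fads2 (ENSMUSG00000024665.8, chr19:10062765-10101746, minus strand) and Fads1 (ENSMUSG00000010663.5, chr19:10182888-10196877, plus strand) form a cluster of 155.3 kb. Fads3 and Fads2 end 2654 bases apart, and the starts of Fads2 and Fads1 lie 81.1 kb apart. Elovl3 (ENSMUSG00000038754.5) is at chr19:46131897-46135694 on the plus strand. Elovl1 (ENSMUSG00000006390.15) is at chr4:118428093-118432953 on the plus strand, Elovl2 (ENSMUSG00000021364.16) at chr13:41182381-41220405 on the minus strand and Elovl5 (ENSMUSG00000032349.13) at chr9:77917364-77984519 on the plus strand. All 7 are protein-coding. Exons of Elovl1 share 53 bases with Cdc20 and those of Elovl3 share 10 bases with Pitx3, and how reads in shared bases were counted is not given in the sources used here.

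The 250 bases before the annotated start were read for 5 of the 7 genes from RefSeq on GRCm38.p6. They are shown for Elovl5 (chr9:77917115-77917364, plus strand), whose mRNA was among those past the threshold below, for Fads3 (chr19:10041298-10041547, plus strand), which is a member of the cluster, and for Elovl1 (chr4:118427843-118428092, plus strand), whose 4 mRNA levels lay closest together. Capitals mark the CCAAT box (CCAAT), the GC box (GGGCGG) and the E-box (CACGTG), on either strand.
Elovl5: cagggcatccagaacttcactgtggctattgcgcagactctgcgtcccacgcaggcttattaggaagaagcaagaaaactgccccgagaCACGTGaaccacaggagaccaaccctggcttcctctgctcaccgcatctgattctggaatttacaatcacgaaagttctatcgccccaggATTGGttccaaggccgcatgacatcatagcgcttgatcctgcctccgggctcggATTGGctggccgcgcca
Fads3: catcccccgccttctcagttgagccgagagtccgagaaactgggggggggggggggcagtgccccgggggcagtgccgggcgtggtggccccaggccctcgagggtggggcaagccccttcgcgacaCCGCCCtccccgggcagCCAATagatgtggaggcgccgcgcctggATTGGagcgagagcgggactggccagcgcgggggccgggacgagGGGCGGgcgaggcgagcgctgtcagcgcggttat
Elovl1: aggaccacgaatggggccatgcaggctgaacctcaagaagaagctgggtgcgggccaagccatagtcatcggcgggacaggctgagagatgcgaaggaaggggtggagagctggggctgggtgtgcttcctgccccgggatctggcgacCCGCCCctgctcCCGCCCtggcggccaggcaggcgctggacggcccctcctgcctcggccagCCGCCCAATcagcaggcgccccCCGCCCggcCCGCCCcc

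The upstream window of Elovl5 held 2 CCAAT boxes and 1 E-box and no GC box. The window of Fads3 held 2 CCAAT boxes and 2 GC boxes, and that of Elovl1 held 1 CCAAT box and 5 GC boxes, with 1 GC box sharing bases with the CCAAT box. The window of Fads2 held 1 GC box, and its sequence is not shown because GENCODE places most of it in the first exon. The first of the windows of Elovl2 held 5 GC boxes. None of these windows held the sterol regulatory element spelled TCACNCCAC, where N is any base, which 1.05% of 32851 windows of the same length held. An E-box was in 6.02% of the windows, a GC box in 32.7% and a CCAAT box in 33.9%. A match is only a match of letters and was not tested as a site, and other spellings of the sterol element were not searched.

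Library depth differed between assays. Estimated totals were 11656000 and 11818000 reads for the HF RNA-seq libraries and 22533000 and 18074000 for the HB ones. The Ribo-seq libraries were far shallower, with 388000 and 1056000 reads in HF and 257000 and 142000 in HB. Protein-coding genes took 91.9% and 91.2% of the Ribo-seq reads in HF and 88.7% and 81.7% in HB, and over all tested genes the median RPF difference was -0.43 on the log2 scale (mRNA, -0.19). The 7 hepatocyte markers were all detected in both assays and none was called. Summed adipocyte markers were low and higher in HB mRNA (12.1 RPKM at most in HF and 23.4 in HB), with Adipoq, Plin1, Lep, Ucp1 and Retn listed at 0 in every Ribo-seq library. Summed blood cell markers were 255.9 and 215.8 RPKM in HF mRNA and 397.7 and 1008 in HB mRNA, and the part of either in the results was not tested. Among the blood cell markers Hbb-bs, a beta globin, was called higher in mRNA, with 75.2 and 67.9 RPKM in HF and 264.6 and 642.6 in HB. Ptprc, the pan-leukocyte CD45, went the other way, with 3.70 and 4.25 RPKM in HF and 1.44 and 1.49 in HB. Alas2, an enzyme of erythroid haem synthesis, was at 22.1 and 33.2 RPKM in HF and 51.3 and 67.2 in HB without being called, and Hba-a1 overlapped between groups. Summed stellate cell markers were 33.8 and 33.0 RPKM in HF mRNA and 70.8 and 42.4 in HB mRNA. Only 2 of the 5 tested stellate markers were positive, with a median of -0.02 on the log2 scale. No marker of the Kupffer, stellate, endothelial or cholangiocyte lists was called in mRNA, whereas 1 Kupffer and 2 endothelial markers were called lower in RPF. In bulk liver, a change in the share of a cell type and a change in RNA per cell cannot be told apart.

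At the transcriptional level, Fads2, Fads1 and Elovl5 were past the threshold of the study towards higher levels in HB, and Elovl2 and the other 3 genes were not. On the log2(RPKM + 1) scale, Fads2, Fads1 and Elovl5 stood at 8.76, 4.91 and 3.97 times their HF level, and the sphingoid desaturase Fads3 and the elongase Elovl2 at 2.89 and 2.41 times. Elovl1 and Elovl3, which serve saturated and monounsaturated chains, stood at 1.18 and 1.17 times. RPKM is a read count divided by gene length and by the reads of the library.

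For Fads2, the enzyme of the first desaturation, mRNA was 38.5 and 36.2 RPKM in the HF libraries and 550.9 and 203.1 RPKM in the HB libraries. The HF libraries were nearly equal, whereas HB replicate 1 was 2.71 times HB replicate 2, and the groups did not overlap. The means were 37.3 ± 1.64 and 377.0 ± 245.9 RPKM (SD, n = 2), a difference of 3.13 on the log2 scale (SE 0.41). Without HB replicate 1 the difference was 2.41, and without HB replicate 2 it was 3.85.

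For Fads1, which adds the later double bond, mRNA was 47.7 and 46.9 RPKM in HF and 284.1 and 195.9 RPKM in HB. Both HB libraries lay far above both HF libraries, and the HB replicates differed by 1.45 times. The means were 47.3 ± 0.53 and 240.0 ± 62.4 RPKM (SD, n = 2), a difference of 2.29 on the log2 scale (SE 0.28). For Fads3, the sphingoid desaturase and the least abundant of the 7, mRNA was 1.84 and 2.43 RPKM in HF and 12.4 and 5.08 RPKM in HB. Its groups also did not overlap, and its difference of 1.53 on the log2 scale (SE 0.36) became 0.96 without HB replicate 1 and 2.10 without HB replicate 2.

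For Elovl5, which lengthens the products of FADS2, mRNA was 93.2 and 66.0 RPKM in HF and 403.1 and 244.6 RPKM in HB, a difference of 1.99 on the log2 scale (SE 0.32). For Elovl2, which lengthens the products of FADS1 further, mRNA was 41.4 and 44.7 RPKM in HF and 164.5 and 67.0 RPKM in HB. Neither gene overlapped between groups, and HB replicate 1 was again the highest library of both. The Elovl2 difference of 1.27 on the log2 scale (SE 0.38) was 0.63 without HB replicate 1 and 1.91 without HB replicate 2.

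For Elovl1, mRNA was 16.7 and 16.2 RPKM in HF and 18.9 and 20.3 RPKM in HB, so the groups were close but did not overlap. For Elovl3, mRNA was 106.6 and 25.8 RPKM in HF and 44.5 and 86.3 RPKM in HB. The Elovl3 groups overlapped fully, with the highest and the lowest level both in HF, and its difference of 0.23 on the log2 scale had an SE of 0.56. That difference was 1.24 without HF replicate 1, and its sign turned without HF replicate 2 (-0.77) and without HB replicate 2 (-0.24).

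The thresholds of the study called a gene in mRNA with a log2 difference beyond 1 and an unadjusted p under 0.001. Fads1, Fads2 and Elovl5 were past it towards higher levels, the same contrast that was known when they were chosen, and none of the 7 was past it towards lower levels. Over all 10687 genes tested, 2.30% were called higher and 6.56% lower. With no filter on low genes, Fads1 alone of the 7 stayed past the threshold. At a common median Fads3 was past it too. The last gene inside the threshold was Elovl5 at 1.99, and the first outside were Fads3 at 1.53 and Elovl2 at 1.27, which passed it on size and not on p. With the libraries set to a common median, the counts over all genes were 540 higher and 291 lower, against 246 and 701 as deposited. Relative to the median of all genes, Fads2, Fads1 and Elovl5 stood at 3.32, 2.48 and 2.18 on the log2 scale. Both HB libraries were above both HF libraries for 6 of the 7 genes, as they were for 24.8% of all tested genes.

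Levels per length put Elovl5 highest in HF, followed by Elovl3, Fads1, Elovl2, Fads2, Elovl1 and Fads3. The Elovl3 libraries spanned every gene from Fads2 to Elovl5. No other neighbours in this order overlapped, although Fads1, Elovl2 and Fads2 all lay between 36.2 and 47.7 RPKM. In HB the order was Fads2, Elovl5, Fads1, Elovl2, Elovl3, Elovl1 and Fads3. The HB libraries of Fads2, Elovl5 and Fads1 overlapped, so their order was not set beyond the spread between libraries, and neither was that of Elovl2 and Elovl3.

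HB replicate 1 was above HB replicate 2 by 1.45 to 2.71 times for Fads1, Fads2, Fads3, Elovl2 and Elovl5. Over all tested genes the median ratio of these libraries was close to 1, at 1.02, and 17.5% of the genes had a ratio of 1.4 or more. Elovl1 and Elovl3 had the opposite order, with ratios of 0.933 and 0.516. The differences from HF in these 5 genes were thus largest in HB replicate 1 and were seen in both libraries.

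**Figure D1:**
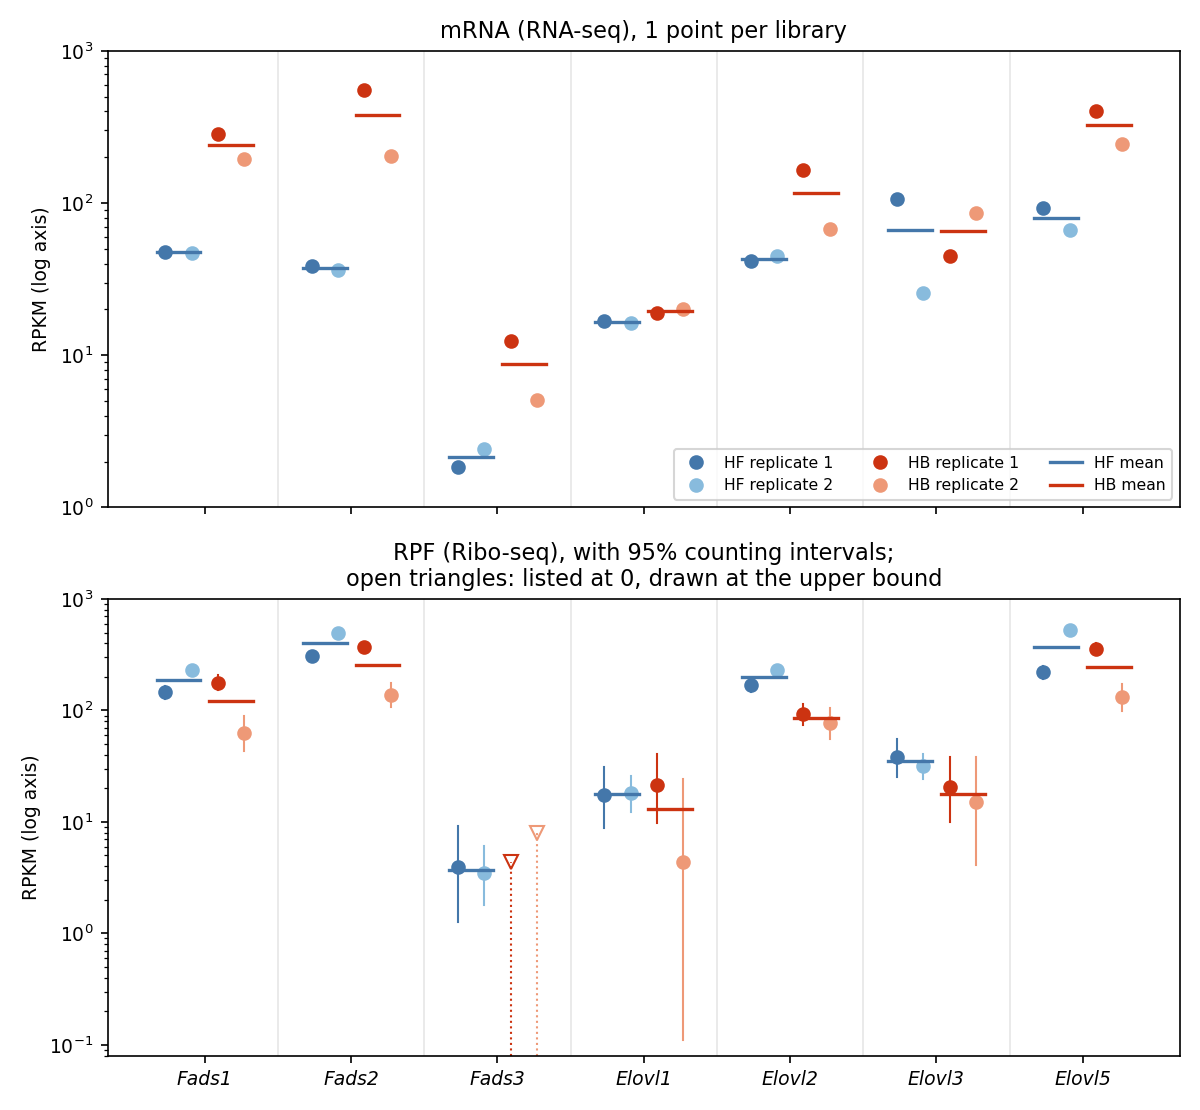
mRNA (upper panel) and RPF (lower panel) RPKM on log axes for the 7 genes, with 1 point per library and horizontal lines at group means. Vertical lines in the lower panel are 95% exact Poisson intervals of the estimated reads. Both HB points lie above both HF points in mRNA for every gene except Elovl3, and in RPF no gene has both HB points above both HF points.

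At the translational level, none of the 7 genes was called higher in HB. Fads2, Fads1 and Elovl5 had RPF means in HB that were 0.635, 0.641 and 0.660 times those of HF, with overlapping libraries. Relative to the median RPF difference of all genes, they stood at -0.35, -0.35 and -0.21 on the log2 scale, and Elovl2 at -0.78. Elovl2 fell 2.31-fold in RPF past the threshold of the study, a log2 difference beyond 1 with an unadjusted p under 0.05. Fads3 passed it too, on few reads.

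For Fads2, RPFs were 309.4 and 492.0 RPKM in HF and 370.6 and 138.2 RPKM in HB. The libraries interleaved, with HF replicate 2 highest and HB replicate 2 lowest. The difference of -0.78 on the log2 scale (SE 0.56, 95% interval -2.23 to 0.66, limma adjusted p = 0.653) did not pass the test. For Fads1, RPFs were 145.3 and 230.7 RPKM in HF and 177.7 and 63.2 RPKM in HB. Its difference was also -0.78 (SE 0.58, 95% interval -2.27 to 0.71, limma adjusted p = 0.653), and the libraries stood in the same order.

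For Elovl5, RPFs were 219.7 and 524.5 RPKM in HF and 359.5 and 131.8 RPKM in HB. This was again the order of HF replicate 2, HB replicate 1, HF replicate 1 and HB replicate 2, and the difference of -0.64 (SE 0.66, 95% interval -2.34 to 1.07, limma adjusted p = 0.729) did not pass the test. The estimated reads behind these values were 237, 1541, 257 and 52 in the order of the libraries given. HB replicate 2 held 31 reads of Fads1 and 64 of Fads2 and was the shallowest library. HB replicate 1 was 2.68 to 2.81 times HB replicate 2 in RPF for these 3 genes, a ratio of 2 or more that 28.7% of the tested genes had. Without HB replicate 2 the RPF differences were -0.04 for Fads1, -0.07 for Fads2 and 0.08 for Elovl5, and without HB replicate 1 they were -1.52, -1.49 and -1.36.

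For Elovl2, RPFs were 167.9 and 229.5 RPKM in HF and 92.4 and 77.4 RPKM in HB, on 255, 949, 93 and 43 estimated reads. Both HB libraries lay below both HF libraries, beyond the counting intervals of each. The means were 198.7 ± 43.5 and 84.9 ± 10.6 RPKM (SD, n = 2), with an unadjusted p of 0.0107 and an adjusted p of 0.493 in limma. The call ended when the libraries were set to a common median (-0.88), without HF replicate 2 (-0.98) and, at the same difference, without the variance trend. Fold changes of Elovl2 in mRNA and in RPF thus had opposite signs.

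For Fads3, RPFs were 3.94 and 3.47 RPKM in HF, on 5 and 12 estimated reads, and the gene was listed at 0 in both HB libraries. A value of 3 reads would have been 3.56 RPKM in HB replicate 1 and 6.45 RPKM in HB replicate 2, so a fall was not detectable at this depth although the test called it (log2 -2.23, unadjusted p = 0.0155, adjusted p = 0.493 in limma). For Elovl1, RPFs were 17.5 and 18.1 RPKM in HF and 21.6 and 4.35 RPKM in HB, the last on 1 read. The groups of Elovl1 overlapped, and its difference of -0.77 (SE 0.78, 95% interval -2.78 to 1.24, limma adjusted p = 0.722) did not pass the test.

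For Elovl3, RPFs were 38.4 and 31.7 RPKM in HF and 20.7 and 15.0 RPKM in HB, on 28, 63, 10 and 4 estimated reads. Both HB libraries were below both HF libraries, and the difference of -0.95 (SE 0.37) had an unadjusted p of 0.0517 in limma, which missed the threshold. Counting intervals of the HB libraries reached 38.1 and 38.4 RPKM, at or near the HF levels.

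Over the 7 genes, 2 were called lower in RPF and 0 higher, against 7.86% and 1.58% of 11190 tested genes. Set to a common median, 421 genes were lower and 349 higher in RPF, against 879 and 177 as deposited, and at a common sum 2659 and 41. No gene of the transcriptome passed an adjusted p of 0.05 in RPF, where limma gave 1122 genes an unadjusted p under 0.05. Both HB libraries lay below both HF libraries for 3 of the 7 genes, Fads3, Elovl2 and Elovl3, as they did for 33.2% of all tested genes.

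Translation efficiency (TE) is the RPF RPKM divided by the mRNA RPKM of libraries with the same group and number, whose animals the sources do not pair. Between RNA-seq and Ribo-seq, libraries of the same number did not deviate together (r = -0.0024 in HF and -0.077 in HB). The TE of a single library therefore rests on the numbering alone. Because mRNA is its denominator, TE repeats the mRNA difference with the opposite sign wherever RPF does not follow. For Fads2, TE was 8.04 and 13.6 in HF and 0.673 and 0.680 in HB, with both HB values below both HF values. For Fads1, TE was 3.05 and 4.92 in HF and 0.626 and 0.323 in HB. For Elovl5, TE was 2.36 and 7.95 in HF and 0.892 and 0.539 in HB.

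For Elovl2, TE was 4.05 and 5.13 in HF and 0.562 and 1.16 in HB. With libraries paired by number, all 4 genes of the polyunsaturated branch had more RPF than mRNA RPKM in both HF libraries. They had less in every HB library except the second of Elovl2, which another pairing could change. The log2 differences in TE were -3.91 for Fads2 (SE 0.50), -3.08 for Fads1 (SE 0.60), -2.63 for Elovl5 (SE 0.72) and -2.47 for Elovl2 (SE 0.56). Without HF replicate 2 the Elovl5 value was -1.75, and without HF replicate 1 it was -3.50.

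For Fads3, TE was 2.15 and 1.43 in HF and 0 in both HB libraries, where 3 reads would have given 0.287 and 1.27. For Elovl1, TE was 1.05 and 1.12 in HF and 1.14 and 0.215 in HB. For Elovl3, TE was 0.360 and 1.23 in HF and 0.465 and 0.174 in HB. Elovl1 and Elovl3 overlapped between groups, and the single read of Elovl1 set its lowest value.

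The study called a TE difference beyond 2 on the log2 scale with an unadjusted p under 0.05. Of the 7 genes, 5 were past it towards lower TE in HB, against 4.60% of 9455 genes with a TE, and the same 5 had both HB values below both HF values, against 31.7%. Without HF replicate 2, Elovl2 and Elovl5 were no longer past it and 3 genes were left, and without HB replicate 1 Elovl2 was lost at -1.96 and Elovl1 passed at -2.10. No gene was past it at an adjusted p under 0.05 in limma, which gave 1154 of the 9455 genes an unadjusted p under 0.05. Since TE uses the mRNA that chose the genes, nothing is read from these counts. Among those 9455 genes, Fads2 stood at percentile 99.5 of TE in HF and 42.0 in HB, Fads1 at 94.6 and 25.5, and Elovl5 at 96.0 and 43.0. Elovl2, whose mRNA was not among those noted earlier, stood at 96.55 in HF and 50.1 in HB. These ranks use the same mRNA, so nothing is read from them either.

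**Figure D2:**
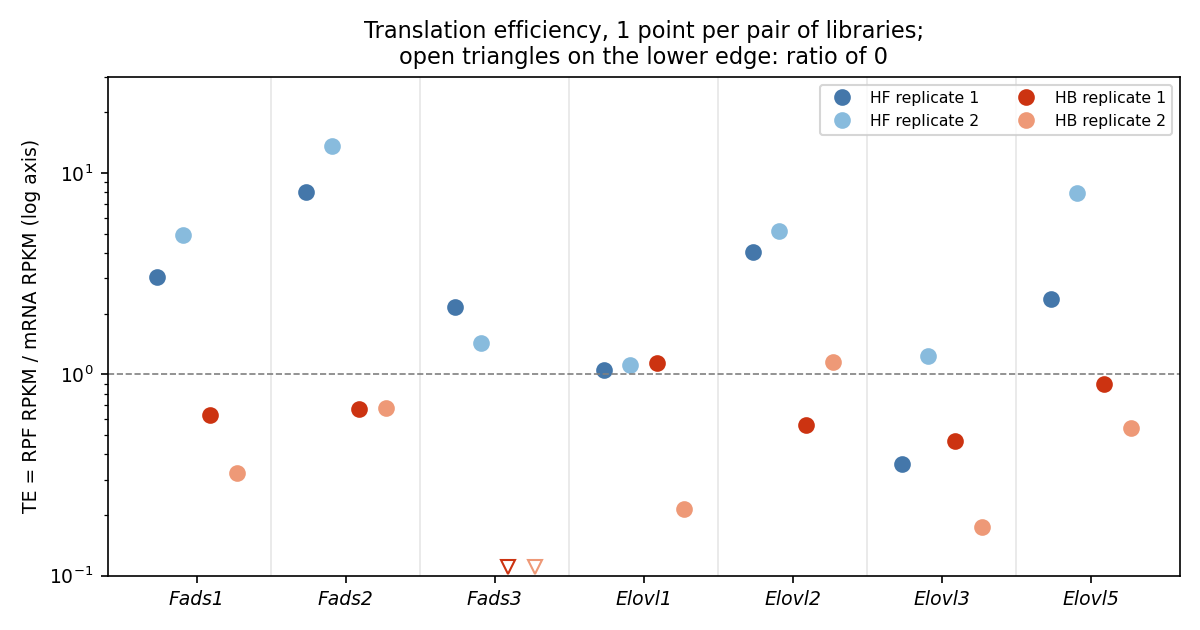
TE of each gene on a log axis, with 1 point per group and replicate number and a dashed line at a TE of 1. Fads2 falls from 8.04 and 13.6 in HF to 0.673 and 0.680 in HB, whereas the Elovl1 and Elovl3 groups overlap.

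The genes with the mRNA profile most like that of each of the 3 called genes were found by the Euclidean distance of log2(RPKM + 1), centred on the HF mean, over the 4 RNA-seq libraries and 4535 genes. The distances are a description over 4 points. Nearest to Fads1 was Plin2, a lipid droplet coat protein (distance 0.225), whose mRNA was 55.4 and 67.6 RPKM in HF and 374.0 and 242.2 RPKM in HB. Eno1, a glycolytic enolase, and Sdha, a subunit of succinate dehydrogenase, followed at 0.306 and 0.317. Elovl5 was nearer to Fads1 (0.562) than Fads2 was (1.34).

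Nearest to Fads2 were Fdps, the farnesyl diphosphate synthase of the cholesterol pathway (0.485), and Fbp1, fructose bisphosphatase of gluconeogenesis (0.622), and then Arl1, a small GTPase of the Golgi. Fdps mRNA was 30.0 and 23.4 RPKM in HF and 300.1 and 125.2 RPKM in HB. Among the nearest to Elovl5 were Akr1c19, an aldo-keto reductase (0.119), and Acsl5, an acyl-CoA synthetase (0.288). RPFs of Plin2 were 154.3 and 201.1 RPKM in HF and 195.8 and 190.5 RPKM in HB, and its groups overlapped. Those of Eno1 were 29.0 and 41.6 RPKM in HF and 70.1 and 43.6 RPKM in HB, those of Sdha 159.6 and 222.8 RPKM in HF and 253.1 and 286.0 RPKM in HB, and those of Fdps 33.5 and 37.6 RPKM in HF and 101.2 and 43.4 RPKM in HB. In these 3 genes both HB libraries lay above both HF libraries. In Fbp1, with 190.0 and 320.0 RPKM in HF and 373.5 and 243.0 RPKM in HB, and in Arl1, with 45.9 and 58.5 RPKM in HF and 73.9 and 25.1 RPKM in HB, the groups overlapped as in Fads1 and Fads2.

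Of 63 further genes listed for this pathway, 44 were tested in mRNA. Of these, 4 were called higher and 1 lower, beside 2.30% and 6.56% of all tested genes, and 29 were positive, beside 39.8%. With no filter on low genes none of the 4 was called. The median log2 difference of the 44 genes was 0.36 against -0.19 over all tested genes. Among the partners of the elongation cycle, 4 of 5 tested were positive and 1 was called higher. This was Hsd17b12, the ketoacyl reductase that follows each ELOVL step, at 37.5 and 34.7 RPKM in HF and 108.5 and 75.5 RPKM in HB (log2 1.30, limma adjusted p = 0.0102). Among 3 genes listed as electron donors, Cyb5b, a cytochrome b5, rose from 28.4 and 26.9 RPKM to 113.6 and 73.8 RPKM (log2 1.69, limma adjusted p = 0.00564). The more abundant Cyb5a was not called, with 1422 and 1345 RPKM in HF and 1437 and 1765 RPKM in HB (log2 0.20). Cyb5r3 was not called either (log2 0.77). Both groups stood clear of each other in each of these genes.

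Among 8 tested genes of acyl-CoA activation and phospholipid acylation, Acsl5 rose from 29.9 and 21.4 RPKM to 156.6 and 71.6 RPKM (log2 2.02, limma adjusted p = 0.00685). Among 8 genes of peroxisomal chain shortening, the last step to docosahexaenoic acid, Ehhadh rose from 31.8 and 33.7 RPKM to 152.6 and 92.9 RPKM (log2 1.83, limma adjusted p = 0.00526), and 7 of the 8 were positive, beside 39.8% of all tested genes. None of 5 tested genes of the release and oxygenation of polyunsaturated fatty acids was called. Of the related desaturases and elongases, none of the 4 tested passed the threshold, and Scd1, the stearoyl-CoA desaturase, named after its values were seen, had 839.4 and 351.4 RPKM in HF and 2804 and 961.3 RPKM in HB.

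Among 11 tested regulators, Mlxipl, which encodes the carbohydrate-sensing factor ChREBP, fell from 433.9 and 503.8 RPKM to 131.8 and 165.4 RPKM (log2 -1.66, limma adjusted p = 0.00557). Srebf1, which encodes SREBP-1 and is also named after its values were seen, had 47.8 and 102.7 RPKM in HF and 120.8 and 62.7 RPKM in HB, and its groups overlapped. The 9 listed targets of SREBP-1c outside this pathway were all positive in mRNA, as were 39.8% of all tested genes, with a median of 1.69 on the log2 scale. Both HB libraries lay above both HF libraries in 6 of the 9, beside 24.8% of all tested genes. In Acly, Gpam and Pnpla3, named after their values were seen, HB replicate 1 was high and HB replicate 2 lay within or below HF, as for Acly with 10.9 and 25.5 RPKM in HF and 148.8 and 16.5 RPKM in HB. Of these only Me1, the malic enzyme that supplies NADPH, was called, with 15.0 and 11.3 RPKM in HF and 135.4 and 44.8 RPKM in HB (log2 2.50, limma adjusted p = 0.00656). None of 9 targets of PPARA was called in mRNA, where 4 were positive and the median was -0.03.

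In RPF, 0 of 48 tested pathway genes were called, with a median of -0.35 against -0.43 over all genes. At a common sum 15 of the 48 were called lower, beside 2659 of all 11190 tested genes. With a pseudocount of 0.1 there were 2 lower, beside 910 of all tested genes. Cyb5b had RPFs of 91.2 and 105.4 RPKM in HF and 110.5 and 64.0 RPKM in HB, and Hsd17b12 had 89.7 and 104.0 RPKM in HF and 65.6 and 76.7 RPKM in HB. The 8 tested targets of SREBP-1c had a median of -0.14 and none was called. Of the PPARA targets, Vnn1, a pantetheinase, fell from 116.3 and 95.2 RPKM to 22.5 and 35.0 RPKM (log2 -1.87, unadjusted p = 0.00346, limma adjusted p = 0.493). Pdk4 was called lower as well, with 4.48 and 4.11 RPKM in HF and 1.13 and 0 RPKM in HB (unadjusted p = 0.048, limma adjusted p = 0.493). Of all tested genes, 7.86% were called lower in RPF. In TE, Acsl5, Mboat7 and Ehhadh of 43 pathway genes and Acss2 and Me1 of 8 SREBP-1c targets were called lower, beside 4.60% of all genes with a TE. Without HF replicate 2, 0 pathway genes were called lower in TE.

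**Figure D3:**
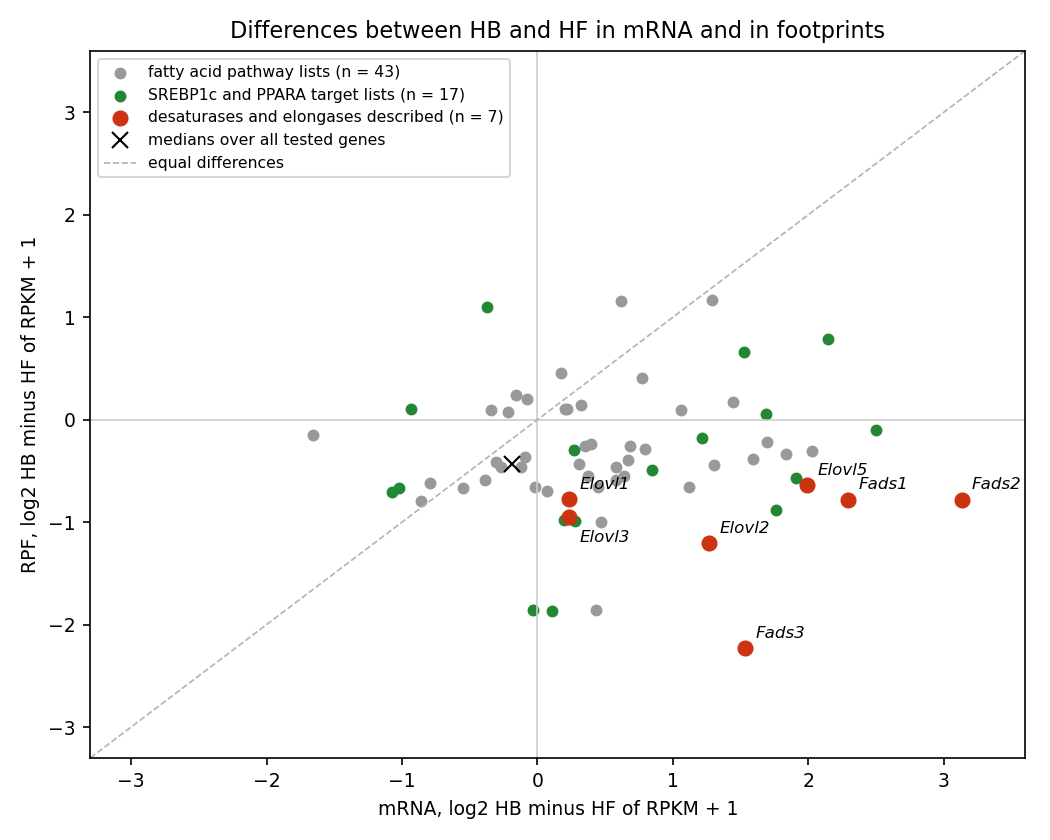
Log2 differences (HB minus HF, RPKM + 1) in mRNA on the horizontal and in RPF on the vertical axis, for the 7 genes (red), 43 pathway genes (grey) and 17 SREBP-1c and PPARA targets (green), with a cross at the medians of all tested genes. All 7 red points lie below 0 on the vertical axis and above 0 on the horizontal axis, with Fads2 at 3.13 and -0.78. Over all tested genes, 39.8% were positive in mRNA and 29.6% in RPF.

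Genes within 200 kb of the Fads cluster were set beside it, and are named after their values were seen. Of the 10 other genes listed there, 5 were tested in mRNA and none was called, with log2 differences from -0.37 (Myrf) to 0.72 (Fth1, the ferritin heavy chain). Fen1 and Tmem258, which lie next to Fads1, were at 0.45 and 0.09. Rab3il1, beyond Fads3, was at -0.18 in mRNA and was called lower in RPF at low levels. The differences of Fads1, Fads2 and Fads3 all exceeded those of their tested neighbours in mRNA, which was not tested as a difference.

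**Figure D4:**
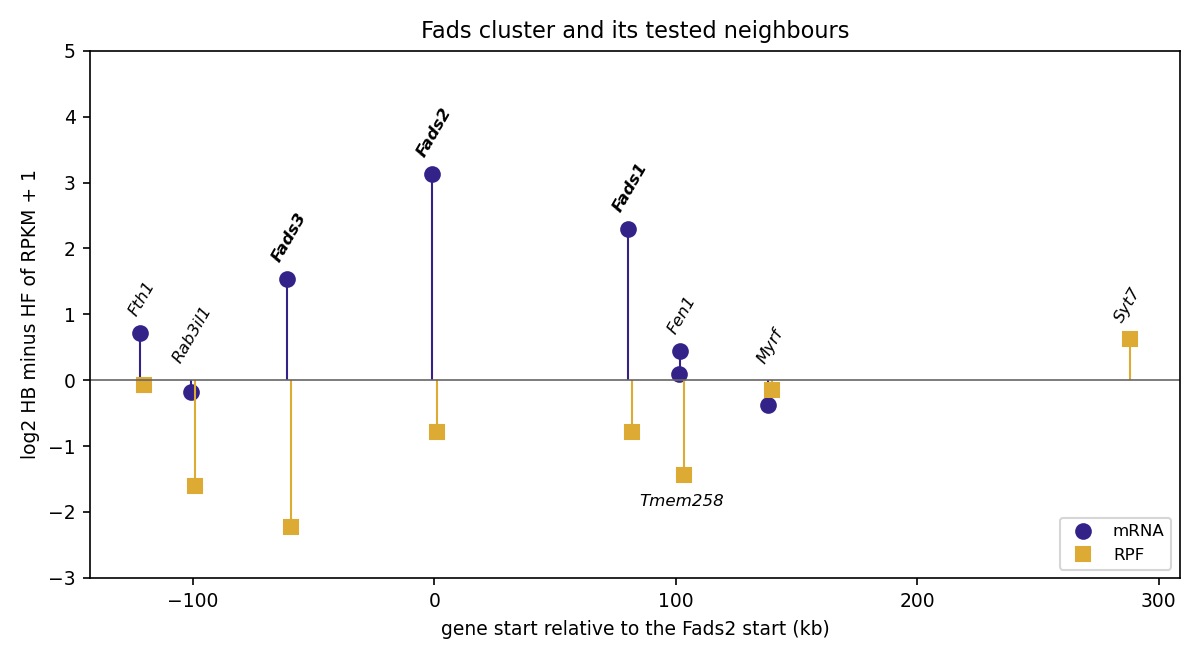
Log2 differences (HB minus HF, RPKM + 1) in mRNA (circles) and RPF (squares), drawn side by side at each gene's start relative to the start of Fads2 in kb. Fads2, Fads1 and Fads3 are at 3.13, 2.29 and 1.53 in mRNA, and the tested neighbours lie between -0.37 and 0.72.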

How the data were processed

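The authors sequenced polyadenylated mRNA and RPFs, used FANSe2 to map the reads (mm10), and deposited 1 list of RPKM values for each library, scaled to its own total. The submitters' processing notes also name edgeR, which was not used here. Whether RPF reads were counted over coding sequence or whole transcripts, and the use of strand, are not given in the sources used here. Where the RPKM of an assay averaged 1 or more across its 4 libraries, the gene was tested in limma 3.58.1 (R 4.3.3; lmFit, eBayes with trend, two-sided) on log2(RPKM + 1), with no covariate and Benjamini-Hochberg adjustment. A fold change on this scale understates that of low genes. Of the RNA-seq entries, 4 carried a symbol used by another entry and did not enter the tests. The fit was also run on simulated data with the same spread for every gene. That run did not copy the spread between the HB libraries, and nothing is read from it here.

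Low RPKM values rise in steps worth 1 read, which gave an estimate of each library's total. Reads per gene followed from these totals and fitted gene lengths, so large read numbers are uncertain by some percent. Exact Poisson 95% intervals and floors of 3 reads cover counting error only.

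The members and lists were chosen with earlier results of these data known. Named beside the 7 genes are the called genes of each list (at most 3 per list and assay) and, for Fads1, Fads2 and Elovl5, the 3 nearest genes among those whose RPKM averaged 10 or more, of which 1 is not reported here. Cell type markers were listed for hepatocytes, Kupffer, stellate and endothelial cells, cholangiocytes, adipocytes and blood cells. The protein sequences were not used here.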

Additional observations from a re-analysis of the deposited data

How the results depend on the processing

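The mRNA differences of Fads1, Fads2, Fads3, Elovl2 and Elovl5 kept their sign under every alternative, from 2.41 to 3.85 for Fads2 and from 0.63 to 1.91 for Elovl2 (log2). Of the 7 genes, 3 were past the mRNA threshold, against 1 with no filter (Fads1), 4 at a common median (Fads3 added) and 5 (Fads3 and Elovl2 added) with either block. These counts describe the contrast that was known when the genes were chosen, and nothing is read from them. The TE differences of the 5 called genes kept their sign, but 3 were called without HF replicate 2 and 0 at an adjusted p under 0.05. In RPF, values with 1 library left out ran from -1.81 to 0.27 for Elovl1 and from -1.36 to 0.082 for Elovl5, with both positive values without HB replicate 2; a lone library is assumed to vary like the others. Of 2 members called lower in RPF, 1 was left with a common median, with the replicate block, without the variance trend and with the crossed replicate block, 0 at an adjusted p under 0.05, and 1 to 6 when 1 library was left out, with 6 without HB replicate 1 and 1 without HF replicate 2. Without HB replicate 1 the fit rests on 1 HB library, and lower RPF calls rose over all tested genes as well. The median RPF difference of all genes was -0.51 there, against -0.43 with every library. Nothing is therefore read from the 6 members called at that setting. The 4 pathway genes called higher in mRNA became 0 with no filter, 8 with the replicate block and 7 at an adjusted p under 0.05. Over all genes, 246 called higher became 77, 498 and 535 in the same settings. HF and HB libraries of the same number did not deviate together (r = -0.104 in mRNA and -0.0138 in RPF), and the labels tie no animal or day to a number. Crossing the numbers, an alternative added after seeing the data as was scaling to protein-coding reads, gave 474 genes higher and 1303 lower in mRNA, against 498 and 1229 with the replicate block and 246 and 701 without. Scaling to protein-coding reads changed no call of a member. A common median moved the median difference of all genes to 0.08 in mRNA and -0.10 in RPF, and a common sum moved that of RPF to -1.16. The cause of these shifts was not tested. Depth limits Fads3, Elovl1 and Elovl3 in RPF, where HB libraries held at most 10 reads.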

Other observations

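Elovl6, which lengthens palmitate and is no member of the set described, had mRNA of 13.8 and 7.99 RPKM in HF and 57.9 and 8.83 RPKM in HB, and RPFs of 11.3 and 52.5 RPKM in HF and 79.8 and 8.29 RPKM in HB. Its HB libraries differed by more than its groups did in both assays. Insig1, which retains SREBP in the endoplasmic reticulum, had mRNA of 44.0 and 43.9 RPKM in HF and 211.8 and 68.9 RPKM in HB (log2 1.44, limma adjusted p = 0.0372). It did not pass the mRNA threshold of the study on the unadjusted p. Its RPFs were 62.3 and 176.2 RPKM in HF and 193.9 and 71.9 RPKM in HB. Both genes are named after their values were seen.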
